A study of Homo sapiens with 12 samples.

Results

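The aldo-keto reductases (AKRs) are enzymes that reduce aldehydes and ketones with NADPH. The genes followed here were AKR1A1, AKR1B1, AKR1B10, AKR1B15, AKR1C1, AKR1C2, AKR1C3, AKR1C4, AKR7A2 and AKR7A3, which are 10 of the 57815 genes in each expression file. They were chosen by name, as members of the family, and found by matching the files' Ensembl identifiers to gene symbols, with no threshold on their values. RNA was sequenced from 3 established human lines of KEAP1-mutant non-small cell lung cancer: A549 and H2023, labelled lung adenocarcinoma, and H460, labelled large cell carcinoma. Cells were transfected with a control siRNA or with an siRNA against NRF2, the protein of the NFE2L2 gene, and were harvested at 48 h. There were 6 groups, with 2 libraries in each. The control libraries were biological duplicates by the study's methods, whereas the NRF2 siRNA pair of each line held siRNA 28 in one library and siRNA 30 in the other, so its spread included the difference between siRNAs. A549 RNA was depleted of ribosomal RNA, and H2023 and H460 RNA was selected for polyA. By the study's methods, A549 was also kept in high glucose DMEM and the other lines in low glucose DMEM. Protocol, medium and line thus cannot be told apart where A549 is set beside the others.

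KEAP1 normally marks NRF2 for degradation, and cells without working KEAP1 keep NRF2 in the nucleus, where it binds antioxidant response elements with small MAF proteins. AKR1B10 and the AKR1C genes are widely used as readouts of that pathway in human cells. Their enzymes clear retinal, lipid aldehydes, steroid ketones and quinones, while AKR1A1 and AKR7A2 are broadly expressed aldehyde reductases.

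Values are FPKM, fragments per kilobase of transcript scaled to the mapped fragments of the library, so levels can be set beside each other per length. Between 12732 and 13909 genes reached 1 FPKM in a library; the files used give no read counts per library, so the depth of a single library is unknown. Averaged over the 4 libraries of a line, the authors' mean normalised counts summed to 33017170 in A549, 14228212 in H2023 and 14029848 in H460, so more counted reads stood behind the A549 values. NFE2L2 itself fell in every line: its FPKM was 38.2 and 30.9 in the A549 control libraries and 5.31 and 7.84 in the NRF2 siRNA libraries, 120 and 118 against 7.74 and 6.80 in H2023, and 144 and 99.5 against 6.54 and 12.2 in H460. The keratin KRT8 was abundant in all 3 lines (553 to 3939 FPKM), and of 4 lung adenocarcinoma markers KRT7 was at 810 to 1106 FPKM in A549, 682 to 1388 in H2023 and 10.3 to 26.8 in H460, while NAPSA did not exceed 1.25 FPKM and NKX2-1 and SFTPB did not exceed 0.353 FPKM in any library, and in H460 EPCAM and CDH1 did not exceed 1.19 FPKM. Of 6 markers of other cells, 5 were matched, with PTPRC at or below 0.470 FPKM and COL1A2 at or below 0.395 FPKM in every library. Their summed level was 1.06 to 1.39 FPKM in the A549 controls and 1.04 to 1.31 with NRF2 siRNA, 2.73 to 4.22 against 3.89 to 9.11 in H2023, and 2.05 to 2.21 against 6.08 to 6.34 in H460. Of these markers COL1A1 rose with NRF2 siRNA in H460 (log2 change 1.23, limma adjusted p = 0.0329) and the epithelial marker CDH1 rose in H2023 (from a mean of 10.3 to 61.6 FPKM, limma adjusted p = 0.0280); their part in the results below was not tested.

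The question of each within-line comparison was which AKR transcripts depend on NRF2. A gene was tested in a line where it reached 1 FPKM in at least 2 of the 4 libraries, and log2(FPKM + 1) was compared with limma, with Benjamini-Hochberg adjustment over all genes tested and a threshold of 0.05. AKR7A3 passed this filter in no line, and AKR1B15 and AKR1C4 did not pass it in H460, which left 25 member tests. In A549, 4 of 9 tested members fell (AKR1B10, AKR1B15, AKR1C1 and AKR1C2), where 0.554% of all 13898 genes tested fell. In H2023, 3 of 9 fell (AKR1B15, AKR1C1 and AKR1C2), against 0.583% of 14059 genes. In H460, 5 of 7 fell (AKR1B1, AKR1B10, AKR1C1, AKR1C2 and AKR1C3), against 6.86% of 13446 genes. No member rose in any line, where 0.122%, 0.327% and 7.12% of genes rose in A549, H2023 and H460. The median log2 change over the tested members was -1.80 (A549), -1.80 (H2023) and -2.67 (H460), beside 0.02, 0.02 and -0.01 over all genes tested. In bulk RNA, a lower level in each cell and fewer cells with the transcript cannot be told apart.

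**Figure D1:**
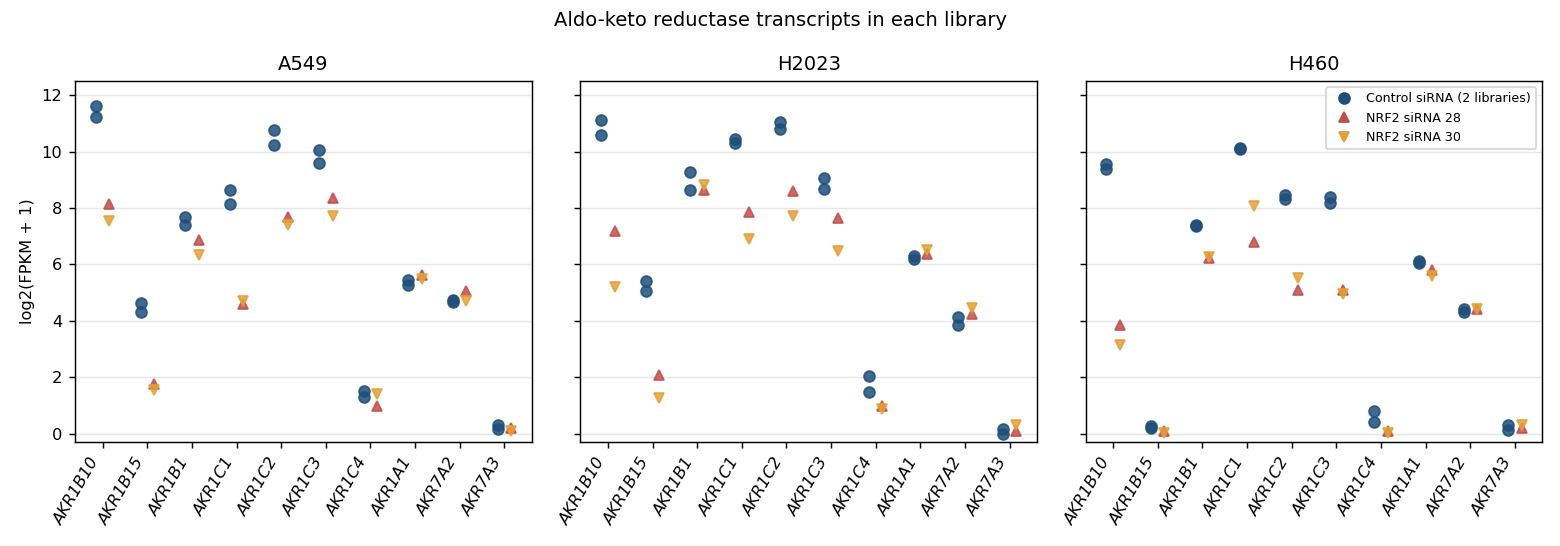
Level of each aldo-keto reductase, as log2(FPKM + 1), in the 4 libraries of each cell line, with circles for control siRNA and triangles for each NRF2 siRNA. AKR1B10 and AKR1C1 to AKR1C3 stood clear of their controls in all 3 lines, whereas AKR1A1 and AKR7A2 lay near them and AKR7A3 lay near 0.

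The AKR1B genes lie side by side on the long arm of chromosome 7. In GRCh37, AKR1B1 spans chr7:134127108-134144036 on the minus strand, AKR1B10 spans chr7:134212319-134226164 and AKR1B15 spans chr7:134233862-134264627, both on the plus strand. AKR1B10, which reduces retinal and other reactive aldehydes, was among the most abundant transcripts of the control cells, at rank 27 of 57815 genes in A549, 31 in H2023 and 139 in H460 by mean control FPKM.

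AKR1B10 measured 3144 and 2406 FPKM in the A549 control libraries and 279 and 186 FPKM with siRNA 28 and siRNA 30. In H2023 the control libraries held 2220 and 1535 FPKM, and the NRF2 siRNA libraries 145 and 35.7 FPKM. In H460 the values were 744 and 665 FPKM against 13.3 and 7.72 FPKM. Both NRF2 siRNA libraries thus lay below both controls in every line. With NRF2 siRNA, 8.36% of the A549 control mean was left, 4.81% of that of H2023 and 1.49% of that of H460. The log2 change was -3.59 ± 0.25 (SE, adjusted p = 0.00561) in A549 and -5.98 ± 0.29 (SE, adjusted p = 0.00271) in H460. In H2023 it was -4.66 ± 0.64 (SE) and missed the threshold (adjusted p = 0.0556), although of all 14059 genes tested in that line AKR1B10 had the lowest log2 change. It passed in 5 of 12 alternative settings there, a block for the replicate number among them. There the 2 NRF2 siRNA libraries, one per siRNA, had a coefficient of variation of 85.5%.

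AKR1B15, the neighbouring paralog, which acts on steroid and acyl-CoA carbonyls, was expressed at a far lower level. Its FPKM was 23.9 and 19.1 in the A549 controls and 2.41 and 1.95 with NRF2 siRNA, and 41.1 and 32.3 against 3.27 and 1.42 in H2023. The log2 change was -2.82 ± 0.18 (SE, adjusted p = 0.00372) in A549 and -3.54 ± 0.33 (SE, adjusted p = 0.0255) in H2023. In H460, in contrast, AKR1B15 did not exceed 0.200 FPKM in any library and was not tested. With control siRNA, AKR1B15 amounted to 0.761% and 0.794% of AKR1B10 in the A549 libraries and 1.85% and 2.10% in those of H2023, but to 0.0194% and 0.0301% in those of H460. The mean normalised counts over the 4 libraries of each line, which the authors deposited apart from the FPKM values, gave the same order, with AKR1B15 at 0.692% of AKR1B10 in A549, 2.55% in H2023 and 0.0441% in H460. The coding sequences of AKR1B10 and AKR1B15 were 86.7% identical in the alignment of their main transcripts, and 3.65% of the 80-base windows of the AKR1B15 transcript occurred unchanged in AKR1B10.

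AKR1B1, aldose reductase, which turns glucose into sorbitol, was affected less than its neighbours. In A549 its FPKM was 202 and 168 with control siRNA and 116 and 79.5 with NRF2 siRNA, and in H460 164 and 168 against 73.5 and 75.7. In H2023 the control libraries held 396 and 611 FPKM and the NRF2 siRNA libraries 395 and 449 FPKM, so the groups overlapped. AKR1B1 fell in H460 (log2 change -1.14 ± 0.20, SE, adjusted p = 0.0243). The change was -0.93 ± 0.22 (SE, adjusted p = 0.198) in A549 and -0.22 ± 0.25 (SE, adjusted p = 0.698) in H2023, neither of which passed the test.

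The 4 AKR1C genes form a cluster on the short arm of chromosome 10. In GRCh37, AKR1C1 spans chr10:5005445-5025475, AKR1C3 chr10:5077546-5149878 and AKR1C4 chr10:5237425-5260912 on the plus strand, and AKR1C2 spans chr10:5029967-5060223 on the minus strand. AKR1C1 inactivates progesterone, AKR1C2 inactivates dihydrotestosterone, AKR1C3 makes active androgens and prostaglandin F and reduces quinones, and AKR1C4 is the liver form that acts in bile acid synthesis. Their coding sequences all have 969 bases, and those of AKR1C1 and AKR1C2 differed at 19 of them (98.0% identity), whereas AKR1C3 and AKR1C4 were 91.7% and 89.0% identical to AKR1C1. Of all 80-base windows (the study's read length) of the main transcript, 15.8% in AKR1C1, 34.0% in AKR1C2, 11.3% in AKR1C3 and 4.13% in AKR1C4 occurred unchanged in a transcript of another gene. Within the coding sequence alone these shares were 32.4%, 37.6%, 14.0% and 5.17%. A read from such a window can be assigned only through its mate, so the split between these genes, AKR1C1 and AKR1C2 above all, is uncertain. The 60-base stretch in which AKR1C1 and AKR1C2 differ most, coding bases 103 to 162 counted from the start codon's first base, shows where a read does tell the paralogs apart; capitals mark bases that differ from AKR1C1, at 10 positions in AKR1C2, 7 in AKR1C3 and 5 in AKR1C4. In GRCh37 it lies, within 1 coding exon each time, at chr10:5008124-5008183 (plus strand) in AKR1C1, chr10:5043796-5043855 (minus strand) in AKR1C2, chr10:5138620-5138679 (plus strand) in AKR1C3 and chr10:5242162-5242221 (plus strand) in AKR1C4.
AKR1C1: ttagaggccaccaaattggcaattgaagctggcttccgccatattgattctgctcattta
AKR1C2: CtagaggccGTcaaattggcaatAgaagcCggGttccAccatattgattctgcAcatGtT
AKR1C3: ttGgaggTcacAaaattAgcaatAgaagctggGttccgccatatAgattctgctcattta
AKR1C4: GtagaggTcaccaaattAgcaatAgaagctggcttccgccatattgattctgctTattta

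AKR1C1 was the AKR1C gene with the largest relative loss in A549. Its FPKM was 398 and 280 in the control libraries and 23.1 and 24.999 in the NRF2 siRNA libraries, 7.08% of the control mean. In H2023 the controls held 1382 and 1252 FPKM, and the NRF2 siRNA libraries 230 and 118 FPKM, and in H460 the controls held 1083 and 1105 FPKM against 110 and 266 FPKM. The groups were apart in each line. The log2 changes were -3.74 ± 0.20 (SE, adjusted p = 0.00286) in A549, -2.99 ± 0.33 (SE, adjusted p = 0.0336) in H2023 and -2.67 ± 0.42 (SE, adjusted p = 0.0200) in H460.

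AKR1C2 was the most abundant AKR1C transcript in the A549 and H2023 controls, and lay below AKR1C1 in H460. It measured 1737 and 1205 FPKM against 204 and 167 in A549, 2093 and 1794 against 391 and 211 in H2023, and 322 and 355 against 33.2 and 45.2 in H460. What was left with NRF2 siRNA was 12.6%, 15.5% and 11.6% of the control mean in A549, H2023 and H460. AKR1C2 fell in all 3 lines, with log2 changes of -2.96 ± 0.23 (SE, adjusted p = 0.00754), -2.75 ± 0.32 (SE, adjusted p = 0.0355) and -3.09 ± 0.24 (SE, adjusted p = 0.00897) in that order.

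AKR1C3 passed the test in H460, where it went from 291 and 332 FPKM to 33.2 and 30.1 FPKM (log2 change -3.26 ± 0.21, SE, adjusted p = 0.00530). In A549 it measured 1069 and 767 FPKM with control siRNA and 323 and 207 FPKM with NRF2 siRNA, and in H2023 534 and 406 against 200 and 87.8 FPKM. The groups did not overlap in either line, but the log2 changes, -1.80 ± 0.28 (SE, adjusted p = 0.0821) and -1.80 ± 0.40 (SE, adjusted p = 0.134), missed the threshold. Of 12 alternative settings, AKR1C3 passed in 2 in A549 and in 4 in H2023, a block for the replicate number among them in both lines.

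AKR1C4 was the least expressed AKR1C gene in every library. Its FPKM was 1.85 and 1.45 against 0.961 and 1.62 in A549, 3.12 and 1.75 against 0.976 and 0.811 in H2023, and at or below 0.750 in every H460 library. The authors' mean normalised count for AKR1C4 was 37.9 in A549 and 8.46 in H2023, and 0 in H460, where the FPKM files list values above 0, so the 2 ways of counting disagreed for this gene. AKR1C4 passed the filter in H2023 only through its controls, and its log2 changes of -0.22 ± 0.22 (SE, adjusted p = 0.713) in A549 and -0.83 ± 0.28 (SE, adjusted p = 0.243) in H2023 did not pass the test.

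**Figure D2:**
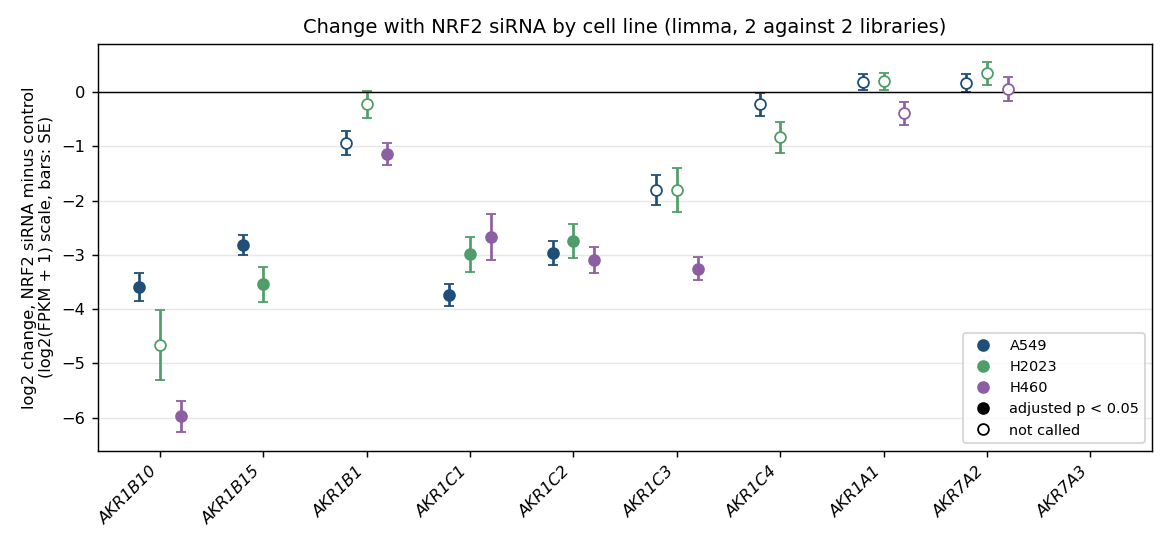
Log2 change (NRF2 siRNA minus control siRNA, on the log2(FPKM + 1) scale) of each tested member in each cell line, with bars for the standard error of the limma fit and filled points for an adjusted p below 0.05. AKR1B10, AKR1C1 and AKR1C2 lie below -2 in every line, while AKR1A1 and AKR7A2 lie near 0; a missing point was not tested.

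The make-up of the AKR1C transcripts differed between lines. In the 2 A549 control libraries AKR1C1, AKR1C2 and AKR1C3 held 12.4% and 12.4%, 54.2% and 53.5%, and 33.4% and 34.0% of the FPKM summed over AKR1C1 to AKR1C4. In the H2023 controls the shares were 34.5% and 36.2% for AKR1C1, 52.2% and 51.9% for AKR1C2 and 13.3% and 11.8% for AKR1C3, and in H460 they were 63.9% and 61.7%, 19.0% and 19.8%, and 17.2% and 18.5%. The 2 control libraries of a line thus gave nearly the same shares, and the leading gene was AKR1C2 in A549 and H2023 and AKR1C1 in H460. The ratio of AKR1C2 to AKR1C1 was 4.36 and 4.30 in the A549 controls, 1.51 and 1.43 in H2023, and 0.297 and 0.321 in H460. The same ratio of the authors' mean normalised counts, which are not per length, was 5.90, 2.36 and 0.354, in the same order of lines, over control and NRF2 siRNA libraries together, where the FPKM ratio was 4.56, 1.51 and 0.294. Per FPKM and kilobase of annotated exon, the AKR1C1 count was 0.317, 0.273 and 0.246 times that of the median gene, and the AKR1C2 count 0.590, 0.616 and 0.427 times; what part paralog reads or transcript length have in this was not tested.

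**Figure D3:**
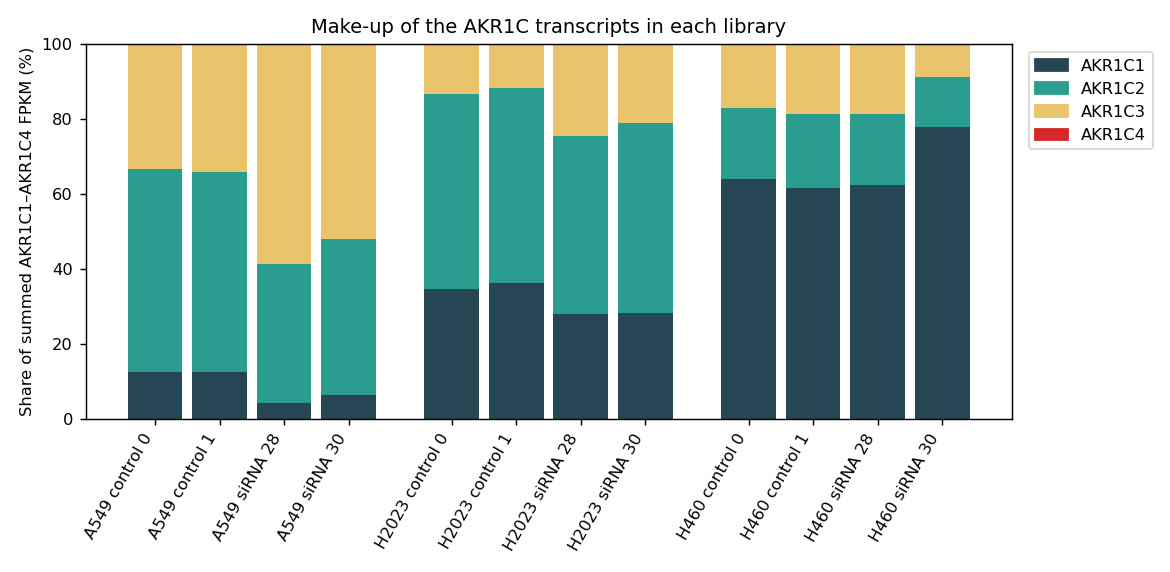
Share (%) of AKR1C1, AKR1C2, AKR1C3 and AKR1C4 in their summed FPKM, 1 bar for each of the 12 libraries. AKR1C1 made up 12.4% of the sum in both A549 control libraries and 63.9% and 61.7% in those of H460, and in A549 and H2023 the AKR1C3 share was higher with NRF2 siRNA; AKR1C4 is too small to be seen.

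The shares also moved with NRF2 siRNA. In A549 the AKR1C3 share was 58.7% and 51.7% with siRNA 28 and siRNA 30, above both controls, and the AKR1C1 share was 4.19% and 6.23%, below both. In H2023 the AKR1C3 share was 24.4% and 21.0%, again above both controls. In H460 the siRNA 28 library kept the control make-up, with AKR1C3 at 18.8%, while the siRNA 30 library had 8.81% of AKR1C3 and 78.0% of AKR1C1. Summed over the 4 genes, AKR1C transcript went from 2730 ± 673 FPKM (SD, n = 2) to 476 ± 106 in A549, from 3733 ± 394 to 620 ± 286 in H2023, and from 1744 ± 68.3 to 259 ± 116 in H460, differences of -2.51, -2.67 and -2.82 on the log2(FPKM + 1) scale. A sum of FPKM over the 4 genes still depends on how reads were split among them. FPKM is per length, and their main transcripts run from 1186 bases (AKR1C3) to 6543 bases (AKR1C1).

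The stretches before the AKR1C1 and AKR1C2 starts were nearly alike. RefSeq promoter sequences (GRCh38.p14) were on hand for 8 of the 10 members, but not for AKR1B10 or AKR1B15. The 250 bases before the start of AKR1C1 and AKR1C2 aligned with 1 mismatch and 8 gap columns. The core of the antioxidant response element was searched on both strands as TGACNNNGC and as TGAGNNNGC, and no place on 1 strand can match both. Of 35116 promoter windows of that length in the table, 10.9% held the first and 14.8% the second, and 23.9% held either. AKR1C1 and AKR1C2 each held 1 match, to TGAGNNNGC on the minus strand, and AKR1C3, AKR1C4, AKR1B1 and AKR1A1 held none. AKR7A2, which passed the test in no line, held 3 matches to TGACNNNGC, and AKR7A3, which was not tested, held 1 to TGAGNNNGC. Some members have more than 1 window, and by window, as for the 23.9%, a match was found in 5 of 11, both for members that fell and for members that did not pass the test. These 5 windows are not separate sequences. The AKR7A2 windows, chr1:19312145-19312394 and chr1:19312147-19312396, hold the same matches, and those of AKR1C1 and AKR1C2 are nearly alike. A match says only that the letters are there, and elements can lie outside this window. The windows are printed to show how closely the pair that fell together match each other, with 1 of the starts listed for AKR1C3 and for AKR7A2 beside them; capitals mark the matches. They lie at chr10:4963165-4963414 (plus), chr10:5003858-5004107 (minus), chr10:5094164-5094413 (plus) and chr1:19312147-19312396 (minus) in GRCh38.p14.
AKR1C1: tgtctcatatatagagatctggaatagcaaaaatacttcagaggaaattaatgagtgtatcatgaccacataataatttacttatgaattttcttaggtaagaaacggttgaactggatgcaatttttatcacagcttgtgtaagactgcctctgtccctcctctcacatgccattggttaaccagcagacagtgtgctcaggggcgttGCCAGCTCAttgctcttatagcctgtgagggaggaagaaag
AKR1C2: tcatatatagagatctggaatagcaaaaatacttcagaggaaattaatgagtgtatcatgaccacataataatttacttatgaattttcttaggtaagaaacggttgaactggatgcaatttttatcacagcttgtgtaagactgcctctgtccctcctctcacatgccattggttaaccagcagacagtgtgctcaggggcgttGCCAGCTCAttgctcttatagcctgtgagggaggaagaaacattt
AKR1C3: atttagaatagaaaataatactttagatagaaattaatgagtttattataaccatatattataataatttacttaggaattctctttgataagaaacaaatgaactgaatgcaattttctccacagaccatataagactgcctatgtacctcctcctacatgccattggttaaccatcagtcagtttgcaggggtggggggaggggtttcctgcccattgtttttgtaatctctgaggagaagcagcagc
AKR7A2: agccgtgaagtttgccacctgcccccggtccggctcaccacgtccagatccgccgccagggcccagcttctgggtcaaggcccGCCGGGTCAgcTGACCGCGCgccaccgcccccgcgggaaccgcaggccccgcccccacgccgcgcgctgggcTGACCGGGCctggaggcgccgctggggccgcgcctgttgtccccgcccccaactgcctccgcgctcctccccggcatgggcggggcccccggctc

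The other members passed the test in no line. AKR1A1 (GRCh37 chr1:46016215-46035721, plus strand), the general aldehyde reductase, measured 43.1 and 37.7 FPKM with control siRNA and 48.4 and 43.97 with NRF2 siRNA in A549, 71.3 and 78.5 against 81.3 and 91.2 in H2023, and 64.7 and 68.2 against 54.5 and 46.6 in H460. Both NRF2 siRNA libraries lay above both controls in A549 and H2023 and below both in H460, but the log2 changes of 0.19 ± 0.14, 0.20 ± 0.16 and -0.39 ± 0.21 (SE) did not pass the test (adjusted p = 0.625, 0.573 and 0.252). AKR7A2 (chr1:19630459-19638638, minus strand), which reduces succinic semialdehyde and aflatoxin dialdehyde, measured 25.6 and 24.6 against 32.2 and 24.9 FPKM in A549, 13.5 and 16.7 against 17.8 and 21.0 in H2023, and 20.2 and 18.9 against 20.2 and 20.4 in H460. Its log2 changes were 0.17 ± 0.17, 0.34 ± 0.20 and 0.05 ± 0.22 (SE), and none passed the test (adjusted p = 0.721, 0.458 and 0.895). Its paralog AKR7A3 (chr1:19609067-19615264, minus strand) did not exceed 0.230 FPKM in any library.

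Counted by library, both NRF2 siRNA values lay below both controls for 6 of 9 tested members in A549, 6 of 9 in H2023 and 6 of 7 in H460, where the same held for 20.5%, 22% and 31.6% of all genes tested. The H2023 count includes AKR1C4, which passed the filter there only through its controls and so had to lie lower. AKR1B10, AKR1C1, AKR1C2 and AKR1C3 were among the members counted in all 3 lines. The 10 members together took 0.665% and 0.530% of all FPKM in the A549 controls and 0.0887% and 0.0796% with NRF2 siRNA, 1.04% and 0.866% against 0.229% and 0.153% in H2023, and 0.361% and 0.383% against 0.0489% and 0.0591% in H460.

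These calls rest on 2 libraries against 2. Without either control library, no member was called in H2023 or in H460 (0 of 9 and 0 of 7), with 0 and 1 gene called in all, while in A549 4 members were called whichever library was left out, with 29 to 84 lower genes in all against 77. Without the siRNA 28 or the siRNA 30 library of H2023, 5 members were called there, but so were 585 and 478 lower genes in all against 82, since the lone library left was assumed to vary like the controls and the spread between siRNAs no longer counted.

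Because a call in one line and not in another does not show a difference, the change with NRF2 siRNA was compared between lines in 1 fit of all 12 libraries, over genes that reached 1 FPKM in 2 libraries of every line. None of the 7 members in that fit differed between lines after adjustment, where 2.51% of 11571 genes did, and 4 of the 7 (AKR1A1, AKR1B1, AKR1B10 and AKR1C3) had an unadjusted limma p below 0.05, as had 2449 of the 11571 genes. The log2 change of AKR1B10 differed by -2.39 ± 0.74 (SE) between H460 and A549 (H460 minus A549, adjusted p = 0.0971), and its F test over the 3 lines gave an adjusted p of 0.172. Without the siRNA 28 or the siRNA 30 library of H2023 the adjusted p was 0.0278 and 0.0421, with 625 and 195 genes called in all against 290; there the lone library was assumed to vary like the other groups, so these values do not bear on the spread between siRNAs. That of AKR1C3 differed by -1.45 ± 0.50 (SE) both for H460 minus A549 (adjusted p = 0.124) and for H460 minus H2023 (adjusted p = 0.123). For AKR1C2 the log2 changes differed by 0.22 ± 0.41 (H2023 minus A549), -0.13 ± 0.41 (H460 minus A549) and -0.34 ± 0.41 (H460 minus H2023, SE), and the F test gave an adjusted p of 0.862.

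The NRF2 siRNAs were compared with each other next. AKR1B10 was lower with siRNA 30 than with siRNA 28 in all 3 lines, at 6.69% against 10.0% of the control mean in A549, 1.90% against 7.71% in H2023 and 1.10% against 1.89% in H460. AKR1C3 had the same order, at 22.6% against 35.2%, 18.7% against 42.6% and 9.66% against 10.7%. AKR1C1 did not, with 24.3% left with siRNA 30 and 10.1% with siRNA 28 in H460 but 8.94% and 17.4% in H2023. NFE2L2 itself was higher with siRNA 30 than with siRNA 28 in A549 and H460 and lower in H2023. In each line siRNA 28 was library 0 and siRNA 30 library 1, so siRNA and library number cannot be told apart. AKR1B10 was also lower in control library 1 than in control library 0 in each line (2406 against 3144, 1535 against 2220 and 665 against 744 FPKM). For AKR1C3 the same held in A549 (767 against 1069) and H2023 (406 against 534) but not in H460 (332 against 291). In a limma fit of the 6 NRF2 siRNA libraries that allowed for the line, siRNA 28 minus siRNA 30 on the log2 scale was 1.10 ± 0.29 (SE, adjusted p = 0.176) for AKR1B10 and 0.65 ± 0.21 (SE, adjusted p = 0.212) for AKR1C3. None of the 8 members tested passed the threshold, nor did any of the 15716 genes (0%), of which 2853 had an unadjusted p below 0.05.

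**Figure D4:**
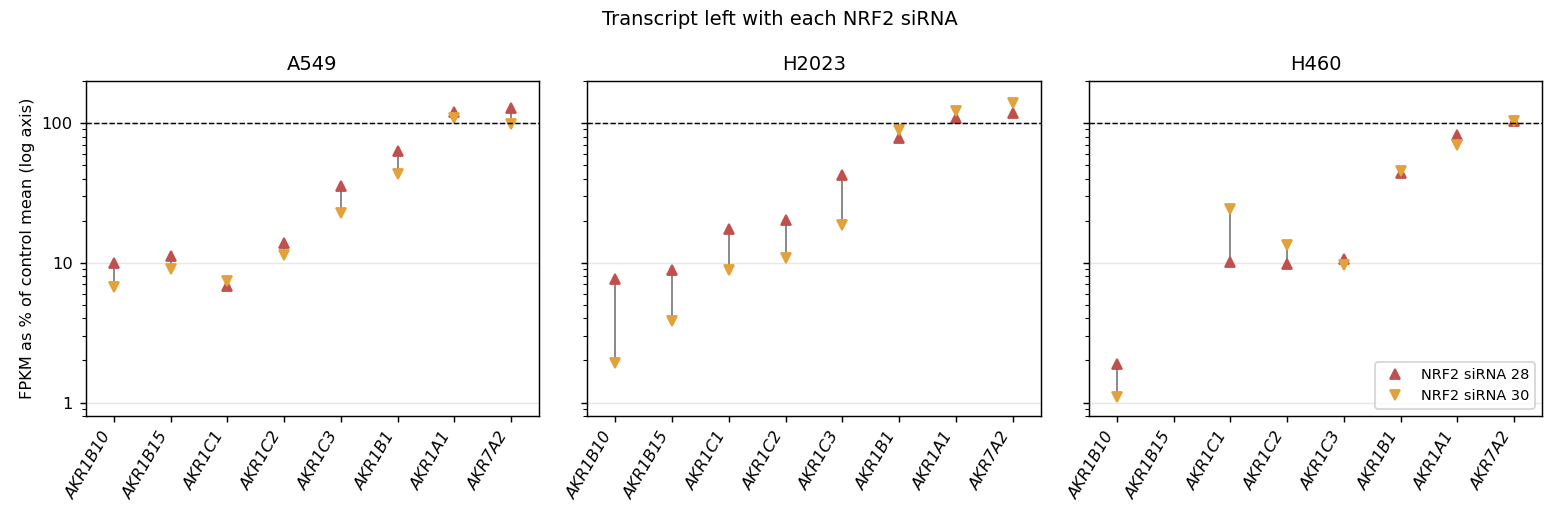
FPKM left with each NRF2 siRNA, as a percent of the mean of the 2 control libraries of the same cell line (log axis; the dashed line is 100%), for 8 members; AKR1B15 in H460 is left out because it was near 0 in the controls. AKR1B10 was lower with siRNA 30 (library 1) in each line, at 1.10% in H460, while AKR1A1 and AKR7A2 stayed near the line. In the controls too, AKR1B10 was lower in library 1 than in library 0 of each line.

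The levels with control siRNA could be compared between H2023 and H460, which shared the polyA protocol. Of 9 members tested, AKR1B15 and AKR1C4 passed the filter only through H2023, so their direction was fixed by it. Of the other 7, 4 were lower in H460 and none higher, where 24.2% of 14039 genes were lower and 48.8% differed in either direction, the latter near the share of members called. The log2 difference, H460 minus H2023, was -2.52 ± 0.17 (SE, adjusted p = 0.000275) for AKR1C2, -1.56 ± 0.22 (SE, adjusted p = 0.00291) for AKR1B1, -1.39 ± 0.23 (SE, adjusted p = 0.00489) for AKR1B10 and -0.58 ± 0.18 (SE, adjusted p = 0.0431) for AKR1C3. As a description, AKR1B15 differed by -5.00 and AKR1C4 by -1.15 on this scale. AKR1C1 (-0.27 ± 0.17), AKR1A1 (-0.17 ± 0.13) and AKR7A2 (0.36 ± 0.17, SE) did not pass the test (adjusted p = 0.249, 0.320 and 0.130). Without control library 0 of H2023, which left a lone H2023 library, AKR1C3 and AKR1B10 no longer passed.

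Among 7 other genes of the AKR superfamily, 6 were matched. AKR1E2, a testis-enriched reductase, was expressed in A549 (15.5 and 11.8 FPKM with control siRNA, 16.5 and 14.6 with NRF2 siRNA) and did not exceed 0.661 FPKM in any library of the other lines. Its log2 change in A549 was 0.19 ± 0.18 (SE, adjusted p = 0.706). KCNAB2, a potassium channel beta subunit with an AKR fold, lay lower with NRF2 siRNA in each line, at -0.29 (A549), -0.40 (H2023) and -0.85 (H460) on the log2 scale, but passed the test in none (adjusted p = 0.500, 0.482 and 0.188). KCNAB3 was tested in H2023 and H460 and passed in neither (adjusted p = 0.329 and 0.393). AKR1D1, AKR7L and KCNAB1 did not reach 1 FPKM in 2 libraries of any line.

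Other enzymes that reduce or oxidise carbonyls and quinones were set beside the members as a list of 37 genes, of which 36 were matched. In A549 4 of 34 tested genes fell and 0 rose, in H2023 6 of 33 fell and 0 rose, and in H460 6 of 31 fell and 2 rose. Over all genes tested, 0.554%, 0.583% and 6.86% fell in these lines, and 7.12% rose in H460, near the share of the list that rose there. The list's median log2 change was -0.01, -0.05 and -0.01, near that of all genes. NQO1, the quinone reductase, PTGR1, the prostaglandin and alkenal reductase, and ALDH3A1, an aldehyde dehydrogenase, fell in all 3 lines. NQO1 measured 1471 and 1352 against 231 and 314 FPKM in A549, 1060 and 876 against 115 and 101 in H2023, and 980 and 1065 against 200 and 346 in H460. In the same order of lines, PTGR1 had log2 changes of -2.75, -2.91 and -2.52 (adjusted p = 0.00286, 0.00805 and 0.00984) and ALDH3A1 of -3.30, -2.79 and -2.92 (adjusted p = 0.0235, 0.0256 and 0.0120). DHRS1 and DHRS7, of the short-chain dehydrogenase family, rose in H460 (log2 changes 1.29 ± 0.28 and 1.08 ± 0.22, SE, adjusted p = 0.0359 and 0.0310).

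**Figure D5:**
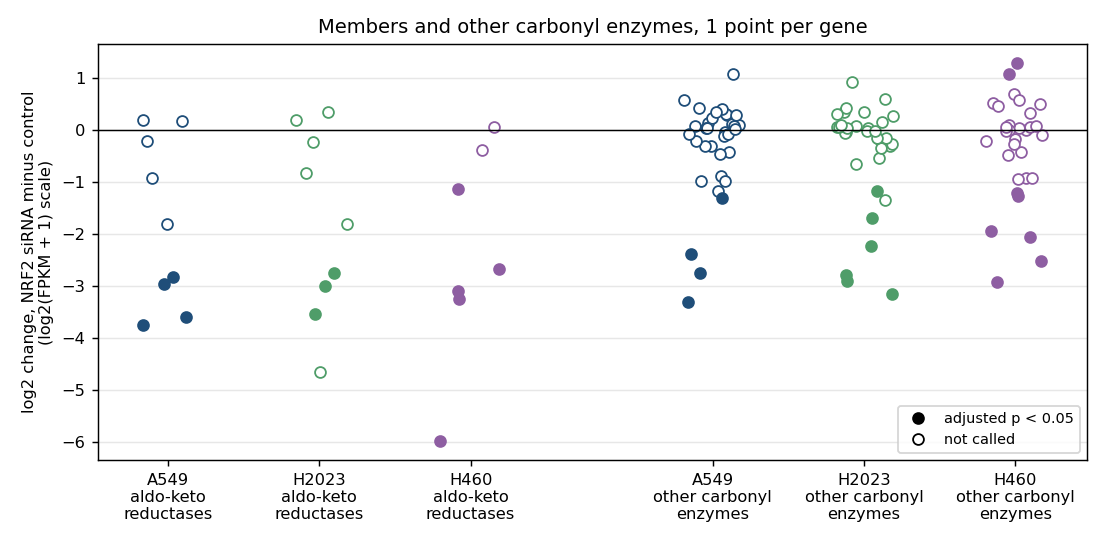
Log2 change with NRF2 siRNA (log2(FPKM + 1) scale), 1 point per tested gene and cell line, for the aldo-keto reductases (left) and the list of other carbonyl enzymes (right), filled where the adjusted p was below 0.05. Most of the other carbonyl enzymes lie near 0, with list medians of -0.01, -0.05 and -0.01.

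The genes whose values followed AKR1B10, AKR1C1, AKR1C2 and AKR1C3 most closely were found by the Pearson correlation of line-centred log2(FPKM + 1) with the mean profile of these 4 genes over the 12 libraries, among 11571 genes. They were TRIM16L (r = 0.988), TRIM16 (r = 0.987), GCLM (r = 0.987), GAPDH (r = 0.984) and UBE2O (r = 0.984), the members apart. These values describe the same control and NRF2 siRNA libraries as the comparisons above. TRIM16L, a TRIM16-like gene, changed by -3.43 (A549), -3.46 (H2023) and -4.44 (H460) on the log2 scale (adjusted p = 0.00321, 0.00713 and 0.00350). GCLM, the modifier subunit of the enzyme that starts glutathione synthesis, had -2.73, -3.13 and -4.01 (adjusted p = 0.00362, 0.00713 and 0.00448), and TRIM16 fell in all 3 lines as well (adjusted p = 0.00754, 0.0238 and 0.00685). GAPDH, a glycolytic enzyme, had log2 changes of -0.67, -0.62 and -0.70 and passed the test in no line (adjusted p = 0.234, 0.217 and 0.211), nor did UBE2O, a ubiquitin-conjugating enzyme (-0.51, -0.57 and -0.67; adjusted p = 0.271, 0.215 and 0.0902). Within the family, the centred values of AKR1B10, AKR1C1, AKR1C2 and AKR1C3 correlated pairwise over the 12 libraries at r = 0.894 (AKR1C1 with AKR1C3) to 0.985 (AKR1B10 with AKR1C3). AKR1B1 correlated with these 4 at 0.786 to 0.840, AKR1A1 at -0.148 to 0.235 and AKR7A2 at -0.640 to -0.509.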

How the data were processed

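RNA sequencing of 12 libraries was analysed from the deposited files; members and gene lists were chosen with earlier results of these data known. The authors deposited FPKM values for each library, without counts. Per the study's methods, 80-base paired-end reads were aligned to hg19 with TopHat and quantified with Cufflinks; the submitters' processing notes instead name STAR 2.5.3a, Cuffnorm, HTSeq and DESeq2, without their roles, so which made the FPKM values is not settled. The authors also deposited a DESeq2 table per line; its mean normalised count (a signal value, over all 4 libraries of the line) was used, and its columns of the authors' own log2 fold changes, errors, statistics and p-values were not. Gene symbols and GRCh37 positions came from GENCODE v44 lifted to GRCh37 (96.1% of identifiers matched; AKR1C8P, DHRS11 and PECAM1 were not), so gene bounds can differ from the authors'.

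FPKM values under 1e-06 (12710) were set to 0. No 2 libraries were identical. For every line, limma 3.58.1 (R 4.3.3) was run on log2(FPKM + 1) of that line's 4 libraries, with a mean-variance trend and Benjamini-Hochberg adjustment over genes with at least 1 FPKM in at least 2 libraries; fold changes on that scale are understated for low genes. Errors are standard errors of the fit. Lines, siRNAs, and H2023 and H460 controls were compared in further limma fits. Named genes were all members, NFE2L2, other AKR genes, carbonyl enzymes called in all lines or higher in any, and the 5 nearest profiles. Coding identity came from global alignment of the main (MANE Select) transcripts. The fits were tested on simulated data. Alternatives covered the pseudocount, filter, scaling, trend, joint fit, replicate block, paralog sums and each library left out. Tables were handled in pandas 2.3.3 and numpy 2.4.6 under Python 3.11.15, and plots drawn with matplotlib 3.10.9.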

Additional observations from a re-analysis of the deposited data

How the results depend on the processing

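With 2 libraries a group and no depth per library, the calls depend on few values. All 12 member results called lower stayed negative in all 12 alternatives tried for each, and none was called in all of them. Over all comparisons, 54 of 70 counts of members stayed within 1.5 times. Without a filter on low values, 0 members were called in A549, H2023 and H460 and 2 between the H2023 and H460 controls; over all genes, calls went from 77 lower and 17 higher to 169 and 186 in A549, from 82 and 46 to 71 and 151 in H2023, from 922 and 957 to 61 and 4 in H460, and from 6857 to 1582 between the controls. The cause was not tested. In H2023, 1 member was called with no trend in the prior variance and 5 in 1 fit of all 12 libraries, with 56 and 305 lower genes in all against 82. Leaving out 1 library gave 4 members in A549 each time, 0 to 5 in H2023 and 0 to 5 in H460 (29 to 84, 0 to 585 and 1 to 1478 lower genes in all), 0 to 1 that differed between lines, and 3 to 5 between the H2023 and H460 controls. The last range was over all tested members, with AKR1B15 and AKR1C4, which passed the filter only through H2023. It cannot be set beside the count over the other members in the Results. Leaving out the mitochondrial transcripts moved the median over all genes tested from 0.02 to -0.07 in A549, from 0.02 to 0.11 in H2023 and from -0.01 to 0.12 in H460, and the calls in H460 from 922 lower and 957 higher to 595 and 1196; the 5 members were still called there.

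The labels give the control and NRF2 siRNA libraries the same replicate numbers but no shared batch, so the numbers were not taken as pairs. Deviations of same-numbered libraries correlated across genes at -0.03 (A549), 0.31 (H2023) and 0.16 (H460). In H2023 and H460 same-numbered libraries thus tended to deviate together, and whether they share a batch was not tested. With the replicate block, 5 members were called in A549 (AKR1C3 added, with 65 lower and 25 higher genes in all, against 77 and 17). In H2023 5 were called (AKR1B10 and AKR1C3 added, with 298 and 413, against 82 and 46), and in H460 5 (1530 and 1647, against 922 and 957). Between lines 0 differed (76 genes in all, against 290), and 6 differed between the H2023 and H460 controls (7051 genes in all, against 6857). The last count is over all tested members, with AKR1B15 and AKR1C4, which passed the filter only through H2023.

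Of 579 single values, 13 changed sign, none of them called. Leaving out 1 library at a time, the log2 change ran from -0.011 to 0.35 for AKR7A2 in A549 (lowest without its siRNA 28 library) and from -0.54 to 0.089 for AKR1B1 in H2023 (highest without control library 1). For siRNA 28 minus siRNA 30 it ran from -0.12 to 0.17 for AKR7A2 and -0.12 to 0.25 for AKR1B1 (below 0 without either A549 library), -0.075 to 0.58 for AKR1C2 (below 0 without either H2023 library), and -0.014 to 0.18 for AKR1A1 and -0.69 to 0.42 for AKR1C1 (signs changed without either H460 library). AKR7A2 was -0.0068 there with quantile normalization.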
